A study of Mus musculus with 12 samples.

Results

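The miR-378 family was followed through postnatal growth of mouse quadriceps, the large extensor muscle of the thigh. The members were taken by name from the deposited count table and comprised both arms of the miR-378a hairpin (mmu-miR-378a-3p and mmu-miR-378a-5p), mmu-miR-378b, mmu-miR-378c and mmu-miR-378d, which made 5 of the 1966 mature miRNAs listed. The prefix for mouse is left out hereafter. Small RNA was sequenced from wild-type C57BL/6J mice on the first day after birth (P1), on days 5 and 14 (named P5 and P14) and in adults on day 90 (P90), with 3 libraries per age and 12 in all. No allele, transgene or agent was used in any group, and the sex of the mice is not given in the labels. The methods of the study describe the libraries of an age as separate mice, and p-values measure the spread between these libraries.

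MiR-378a is produced from an intron of Ppargc1b, the gene of PGC-1β, a transcriptional coactivator that promotes mitochondrial biogenesis and fatty acid oxidation. Both arms of this hairpin are known as regulators of oxidative metabolism. Reported targets are Crat, a mitochondrial carnitine acetyltransferase, for the 3p arm, and Med13, a subunit of the Mediator complex, for the 5p arm. In muscle, miR-378a is also known to increase during differentiation of myoblasts. The miR-378b, miR-378c and miR-378d hairpins are separate genes whose mature sequences closely resemble miR-378a-3p.

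Because the split of reads between members depends on a few bases, the mature sequences of miR-378b, miR-378c and miR-378d were compared. RefSeq (GRCm38.p6) sequences matched 3 of the 5 members, and they are shown 5′ to 3′ with bases 2 to 8, the seed that pairs with targets, in capitals.
miR-378b: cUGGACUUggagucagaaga
miR-378c: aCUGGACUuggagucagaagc
miR-378d: aCUGGCCUuggagucagaaggu
The sequences of miR-378b and miR-378c were identical at 19 of 20 aligned bases, yet miR-378b starts 1 base further in. As a result, the seed of miR-378c is found in miR-378b at base 1, and the capitals of the first and second lines differ by a shift. Positions are counted from 1 at the 5′ end. MiR-378c and miR-378d were identical at 19 of 21 aligned bases and differed by A6C, which is inside the seed, and by C21G. No other mature miRNA of the RefSeq table shared bases 2 to 8 with any of the 3. Neither arm of miR-378a was matched there, so a seed shared with miR-378a could not be seen. The mature miR-378b lies in the 3′ arm of its hairpin and the mature miR-378c and miR-378d lie in the 5′ arm. Whether reads were shared between rows by the counting step is not stated in the sources used here, so the counts of these near-identical members are uncertain where reads were short or trimmed.

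The hairpins lie on 4 chromosomes (RefSeq, GRCm38.p6). Mir378a is on chromosome 18 (61397835 to 61397900), in an intron of Ppargc1b on the same strand. It also overlaps an exon of a lncRNA (Gm58919) on its own strand and an exon of a miRNA gene (Gm54396) on the opposite strand. Mir378b is on chromosome 11 (88352773 to 88352864), in an intron of Msi2, which encodes an RNA-binding protein of the Musashi family, but on the opposite strand. Mir378c is on chromosome 14 (46954830 to 46954928), within an intron of Samd4 (the Smaug RNA-binding protein) on the opposite strand and in an intron of a lncRNA (Gm63249) on its own strand. Mir378d is on chromosome 10 (126710282 to 126710391), in an intron of the lncRNA Gm47966 on the same strand. Strand, intron and exon assignments were taken from GENCODE vM39 by gene name.

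Library totals ranged from 20363495 to 53126984 counts. Levels are given as normalized CPM, that is, counts scaled to a common library size with TMM factors, unless stated otherwise. These factors were 0.247 to 0.384 in adult libraries and 1.24 to 1.73 in the other 9. MiR-1a and miR-1b took 79.6% to 85.3% of the counts of adult libraries and 24.2% to 46.3% at the younger ages. The level of a member in adult muscle depends on the scaling, whereas ratios between members within a library do not. All 5 members passed the filter on low counts, and the lowest count of any member in any library was 234. Total RNA of whole muscle was used, so a change in the share of cells that express a miRNA and a change per cell cannot be told apart.

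MiR-378a-3p, the main product of the family, was among the most abundant miRNAs of the muscle and rose between birth and the second week. It was measured at 5641, 4430 and 5464 normalized CPM at P1 and at 7459, 7197 and 6937 at P5. At P14 it reached 15999, 15478 and 14480 CPM, and at P90 it was 14893, 12176 and 14745. Thus the P5 libraries lay above all P1 libraries, the P14 libraries lay above all P5 libraries, and the P14 and P90 libraries overlapped. Its rank among all miRNAs by count moved from 24 to 29 at P1 to 18 to 20 at P5, 9 or 10 at P14 and 11 or 12 at P90.

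MiR-378a-5p, the passenger arm of the same hairpin, followed the 3p arm at a level lower by 53.7 to 76.6 times in counts. Its values were 73.6, 72.0 and 76.9 normalized CPM at P1 and 105, 94.0 and 109 at P5. They were 226, 279 and 269 CPM at P14 and 227, 184 and 223 at P90. As for the 3p arm, P1, P5 and P14 did not overlap, whereas P14 and P90 did.

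MiR-378d had the largest fold between newborn and adult muscle of the 5 members. It was measured at 19.4, 16.8 and 20.4 normalized CPM at P1 and at 32.2, 41.9 and 39.1 at P5. It reached 147, 151 and 158 CPM at P14 and 267, 209 and 269 at P90. No age overlapped with another, and each later age was higher.

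MiR-378c, the most abundant of the paralogs, and miR-378b, the least abundant, also rose at every step. For miR-378c the values were 107, 83.9 and 107 normalized CPM at P1, 161, 197 and 182 at P5, 429, 405 and 411 at P14 and 517, 523 and 655 at P90. For miR-378b they were 6.20, 5.40 and 6.95 CPM at P1, 7.88, 12.2 and 10.9 at P5, 30.5, 28.3 and 29.8 at P14 and 60.4, 66.5 and 72.2 at P90. Neither of them overlapped between ages, although P5 replicate 1 lay close to the P1 libraries for miR-378b.

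**Figure D1:**
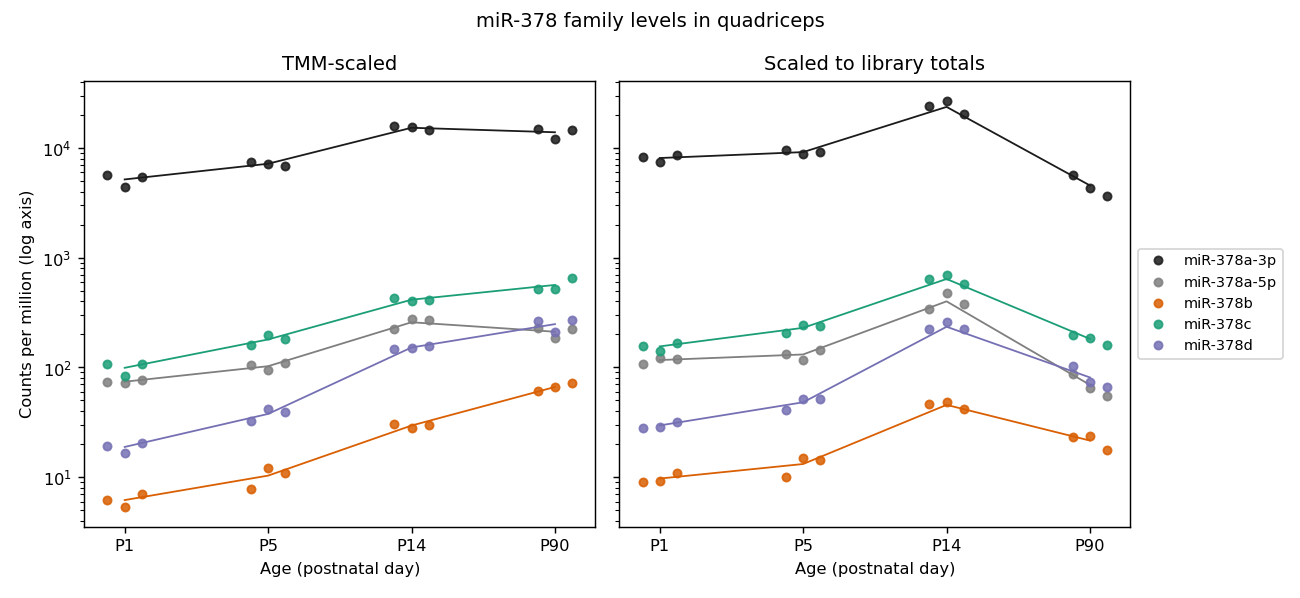
Levels of the 5 miR-378 members in CPM (log axis) by age, with TMM scaling on the left and scaling to library totals on the right. Points are single libraries (n = 3 at each age) and lines join the means. On the left miR-378b, miR-378c and miR-378d rise at every step and both miR-378a arms level off after P14, whereas on the right all 5 members peak at P14.

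The order of the members by level changed with age. At P1 the order by normalized CPM was miR-378a-3p, miR-378c, miR-378a-5p, miR-378d and miR-378b, and no neighbours in this order overlapped. By P90 miR-378d (248 ± 34.0 CPM, SD, n = 3) had a higher mean than miR-378a-5p (212 ± 23.8 CPM), although their ranges overlapped. Within each P90 library miR-378d was the higher, with 267 against 227, 209 against 184 and 269 against 223 CPM. Within each P14 library it was the lower, with 147 against 226, 151 against 279 and 158 against 269 CPM. These differences were not tested. The other neighbours remained apart at P90.

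Differences between ages were tested with edgeR's quasi-likelihood method in 1 fit of all 12 libraries and corrected for the 809 miRNAs tested after Benjamini and Hochberg (Padj), with a call at Padj under 0.05. All 5 members differed across the 4 ages (highest Padj = 3.02e-08, for miR-378a-3p), as did 72.4% of all miRNAs tested.

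Between P1 and P5, all paralogs and miR-378a-3p rose. MiR-378d increased 2.00-fold (log2FC 1.00, SE 0.16, Padj = 0.00222), miR-378c 1.81-fold (log2FC 0.86, SE 0.15, Padj = 0.00371), miR-378b 1.67-fold (log2FC 0.74, SE 0.18, Padj = 0.0338) and miR-378a-3p 1.39-fold (log2FC 0.48, SE 0.13, Padj = 0.044). MiR-378a-5p had a log2FC of 0.47 (SE 0.14, Padj = 0.0781) and did not pass. In total 4 of 5 members were upregulated in this step, compared with 2.72% of all miRNAs tested (1.73% were downregulated and 4.45% passed in either direction), and the median log2FC of all miRNAs was 0.01. The miR-378c and miR-378d calls were kept when any 1 of the 12 libraries was left out. The miR-378a-3p call was lost without any 1 of 9 libraries (all P1 and P5 libraries, P14 replicates 1 and 3 and P90 replicate 3), with a log2FC between 0.35 and 0.52 over the 12 omissions, and the miR-378b call was lost without any 1 of 7 (all P1 libraries, P5 replicates 2 and 3, P14 replicates 1 and 3), with 0.61 to 0.90. With library totals alone edgeR called 0 of the 5 members (2 at an unadjusted p under 0.05), whereas with RLE factors and with DESeq2 5 were called. Over all miRNAs 3 were up- and 37 downregulated of 809 with library totals, 32 and 14 of 809 with RLE factors, and 44 and 29 of 644 with DESeq2. All log2FC with library totals were positive (0.17 to 0.70).

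Both miR-378a arms and all paralogs rose in the second postnatal week. Between P5 and P14 miR-378a-3p increased 2.13-fold (log2FC 1.09, SE 0.13, Padj = 5.86e-06) and miR-378a-5p 2.52-fold (log2FC 1.33, SE 0.14, Padj = 2.87e-06). MiR-378d increased 4.03-fold (log2FC 2.01, SE 0.16, Padj = 1.62e-07), miR-378b 2.86-fold (log2FC 1.52, SE 0.18, Padj = 8.24e-06) and miR-378c 2.30-fold (log2FC 1.20, SE 0.15, Padj = 9.6e-06). All 5 members were upregulated, compared with 18% of all miRNAs (26.3% were downregulated, 44.4% passed in either direction), whose median log2FC was -0.07. All 5 calls were kept with each scaling and without any single library, although the split over all miRNAs moved from 146 up- and 213 downregulated with TMM factors to 207 and 165 with upper-quartile factors and 183 and 160 with library totals. The P14 libraries had a positive slope of level over GC content of the mature sequence (0.378 to 0.562 log2 units per 10 GC points, relative to the mean of all libraries), whereas the slope was -0.011 to 0.076 in the P1 and P5 libraries and -0.595 to -0.382 at P90. With this trend removed the log2FC of P14 versus P5 was 1.62 for miR-378d, 1.22 for miR-378b and 0.85 for miR-378c, and the 3 calls were kept. The GC contents of these members were 54.5%, 50.0% and 52.4%, and the median of the miRNAs tested was 50.0%. Removal of the trend moved the log2FC of P90 versus P14 the other way, from 0.45 to 0.73 for miR-378c, from 0.71 to 1.11 for miR-378d and from 1.17 to 1.25 for miR-378b, with all 3 calls kept.

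From P14 to P90 the paralogs rose, whereas neither arm of miR-378a passed the test. MiR-378b increased 2.25-fold (log2FC 1.17, SE 0.18, Padj = 4.25e-05), miR-378d 1.63-fold (log2FC 0.71, SE 0.16, Padj = 0.00102) and miR-378c 1.36-fold (log2FC 0.45, SE 0.15, Padj = 0.016). The log2FC was -0.14 (SE 0.13, Padj = 0.367) for miR-378a-3p and -0.29 (SE 0.14, Padj = 0.096) for miR-378a-5p. The 3 upregulated members of 5 compare with 22.4% of all miRNAs (36.7% were downregulated, 59.1% passed in either direction), whose median log2FC was -0.55. Here the direction followed the scaling. With library totals alone all 5 members were downregulated (log2FC -2.53 to -1.08) and with upper-quartile factors all 5 were upregulated (1.28 to 2.74), as the median of all miRNAs moved to -2.77 and 0.99. Over all 809 miRNAs 18 were up- and 628 downregulated with library totals, and 382 and 159 with upper-quartile factors. With RLE factors the miR-378a arms had positive values that did not pass (0.22 and 0.07). With totals that left out the miR-1a and miR-1b rows, miR-378a-3p (-0.42) and miR-378a-5p (-0.57) were downregulated, miR-378c (0.16) did not pass, and the median was -0.76 (140 up- and 334 downregulated of 812).

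Adult muscle was then compared with newborn muscle. Between P1 and P90 miR-378d increased 13.2-fold (log2FC 3.72, SE 0.17, Padj = 1.35e-11) and miR-378b 10.7-fold (log2FC 3.42, SE 0.20, Padj = 2.27e-10). MiR-378c increased 5.69-fold (log2FC 2.51, SE 0.16, Padj = 5.33e-10). Both arms of miR-378a increased as well, miR-378a-5p 2.85-fold (log2FC 1.51, SE 0.14, Padj = 1.29e-07) and miR-378a-3p 2.69-fold (log2FC 1.43, SE 0.13, Padj = 5.82e-08). All 5 members were upregulated, compared with 25.2% of all miRNAs (41.2% were downregulated, 66.4% passed in either direction). These 5 rows are not independent, and they were chosen with earlier results of these data known. By log2FC, miR-378d stood at place 24 from the top of the 809 miRNAs, miR-378b at 35, miR-378c at 67, miR-378a-5p at 132 and miR-378a-3p at 144.

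**Figure D2:**
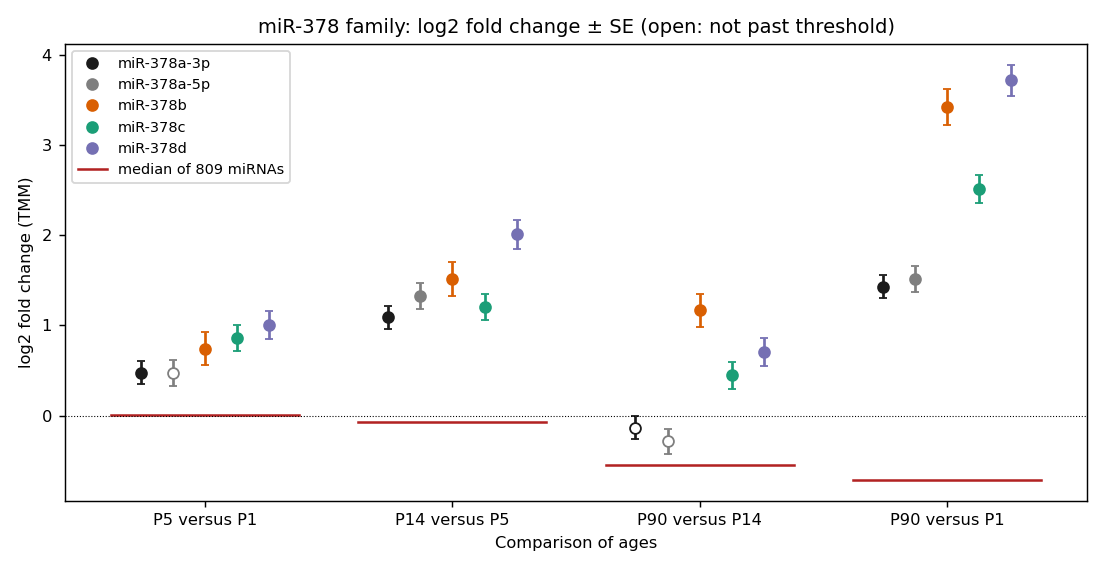
The log2 fold change of each miR-378 member (points, with SE bars, edgeR with TMM factors) in the 4 comparisons of ages, with filled points for Padj under 0.05 and open points otherwise. Red lines mark the median of the 809 miRNAs tested; every member lies above it in each comparison, and in P90 versus P14 the paralogs are above 0 while the miR-378a arms are not called.

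The adult change of miR-378a depended on the scaling as well. With library totals alone, miR-378a-3p and miR-378a-5p were downregulated at P90 versus P1 (log2FC -0.83 and -0.75), miR-378c did not pass (0.23), and miR-378b and miR-378d were still upregulated (1.15 and 1.45). Over all 809 miRNAs 36 were up- and 647 downregulated with library totals, and 391 and 192 with upper-quartile factors. The median log2FC of all miRNAs was -0.72 with TMM factors, -0.37 with RLE factors, above 0 with upper-quartile factors and -2.97 with library totals alone. Each member lay above that median under all of these scalings. The same held when the miR-1a and miR-1b rows were left out of the totals, where the median was -1.08. A scaling shifts all miRNAs of a library alike, so this position was bound to hold and adds no support.

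**Figure D3:**
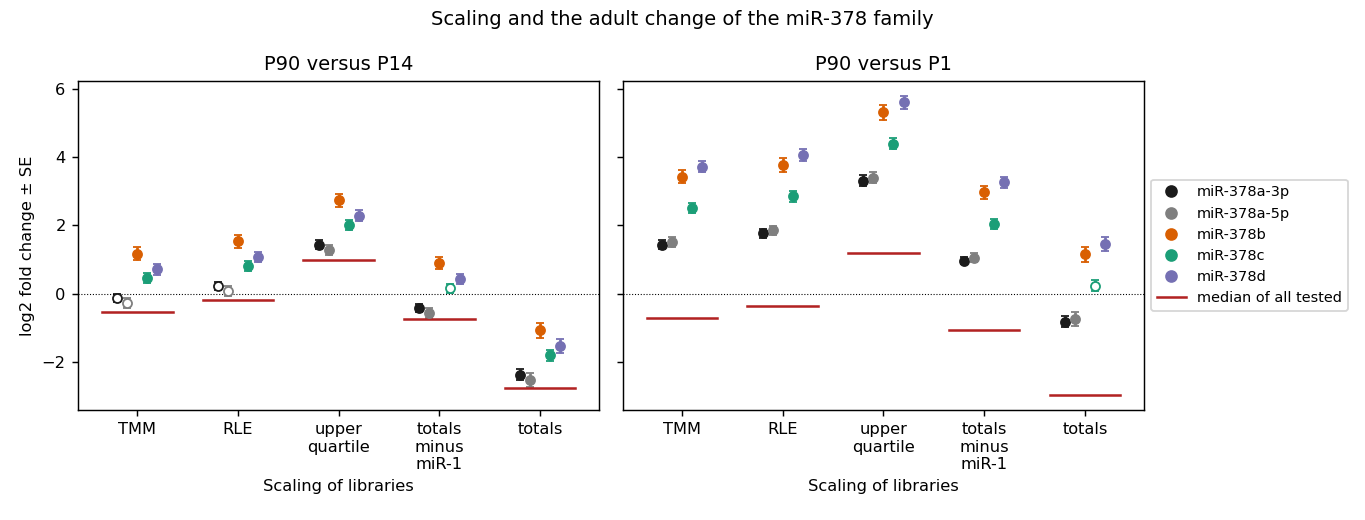
The log2 fold change (with SE) of the 5 members for P90 versus P14 (left) and P90 versus P1 (right) under 5 scalings of the libraries; filled points have Padj under 0.05 and red lines mark the median of all miRNAs tested. Against TMM, members change sign with library totals in both panels and the miR-378a arms also with RLE and upper-quartile factors in the left panel. The members stay above the median under each scaling, which follows by construction because a scaling shifts all miRNAs of a library alike.

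Because reads may be split between near-identical members, the counts of miR-378a-3p, miR-378b, miR-378c and miR-378d were added up and tested as 1 row with the rest of the table. The sum gave a log2FC of 0.49 (SE 0.12, Padj = 0.0365) for P5 versus P1, 1.11 (SE 0.12, Padj = 3.4e-06) for P14 versus P5, -0.10 (SE 0.12, Padj = 0.496) for P90 versus P14 and 1.50 (SE 0.12, Padj = 2.15e-08) for P90 versus P1. The P5 versus P1 call of the sum was lost in 13 of 21 alternatives, among them 9 of the 12 omissions of a library (the same libraries as for miR-378a-3p) and library totals alone (0.19). With library totals alone the P90 versus P1 value was -0.78, and for P90 versus P14 it was -2.35, against 1.49 with upper-quartile factors. These values were close to those of miR-378a-3p, which held 96.3% ± 0.175 of the counts of the 5 members in newborns (SD, n = 3 per age), 95.6% ± 0.402 in P5 muscle, 94.7% ± 0.359 in P14 muscle and 92.7% ± 0.493 in adults.

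The share of all counts held by the family peaked in the second week. In newborns the 5 members together took 0.843% ± 0.0539 of the counts (SD, n = 3 per age). This share was 0.961% ± 0.0293 in P5 muscle, 2.51% ± 0.333 in P14 muscle and 0.492% ± 0.112 in adults. The difference between ages exceeded the spread within them (exact permutation test of the sum of squares between ages, p = 6.49e-05, the smallest that the 15400 partitions of the 12 libraries can give, and 0.00013 adjusted over 6 measures). No age overlapped with another. When the miR-1a and miR-1b rows were left out of the denominator, the adult share was no longer the lowest, with 1.36% ± 0.157 in newborns, 1.75% ± 0.0591 in P5 muscle, 3.62% ± 0.300 in P14 muscle and 2.76% ± 0.222 in adults (n = 3 per age).

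Ratios between members were then computed within each library, as they need no scaling. Those of the paralogs to miR-378a-3p still depend on how reads were split between near-identical rows. The study describes changes in end modifications of miRNAs between developmental stages, and whether the split differed by age was not tested. MiR-378d rose relative to miR-378a-3p over the 4 ages. In newborns its count was 0.344% to 0.379% of the miR-378a-3p count, and the ratio was 0.432% to 0.582% in P5 libraries. It then reached 0.919% to 1.09% in P14 libraries and 1.72% to 1.82% in adult libraries, with no overlap between ages. The ratio increased 4.87-fold from P1 to P90 (exact permutation test across the 4 ages, p = 6.49e-05, the smallest possible, adjusted p = 0.00013).

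MiR-378b also rose relative to miR-378a-3p over the ages. Its count was 0.110% to 0.127% of that of miR-378a-3p at P1 and 0.106% to 0.170% at P5, which overlapped. It was 0.183% to 0.206% at P14 and 0.406% to 0.547% at P90, above all libraries of the younger ages. The ratio increased 3.99-fold from P1 to P90 (exact permutation test, p = 0.000714, adjusted p = 0.000857).

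MiR-378c had the smallest fold of the paralogs relative to miR-378a-3p. In newborns it made 1.89% to 1.97% of the miR-378a-3p count, and in P5 libraries 2.16% to 2.74%. P14 libraries held 2.61% to 2.84% and adult libraries 3.47% to 4.45%. P5 and P14 overlapped, whereas P1 was below and P90 above all other libraries. The increase from P1 to P90 was 2.11-fold (exact permutation test, p = 0.000325, adjusted p = 0.000487).

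In contrast, a difference between ages was not detected for the ratio of both arms of miR-378a. The miR-378a-3p count was 61.5 to 76.6 times that of miR-378a-5p in newborns and 63.4 to 76.6 times in P5 libraries. The ratio was 53.7 to 70.7 in P14 libraries and 65.5 to 66.1 in adult libraries. All ages overlapped, and the test did not pass (exact permutation test, p = 0.262, adjusted p = 0.262). Without P14 replicate 1 the adjusted p was 0.0425, so this result rests on that library. Single pairs of ages were not tested, since 3 libraries against 3 cannot pass the threshold in an exact permutation test.

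**Figure D4:**
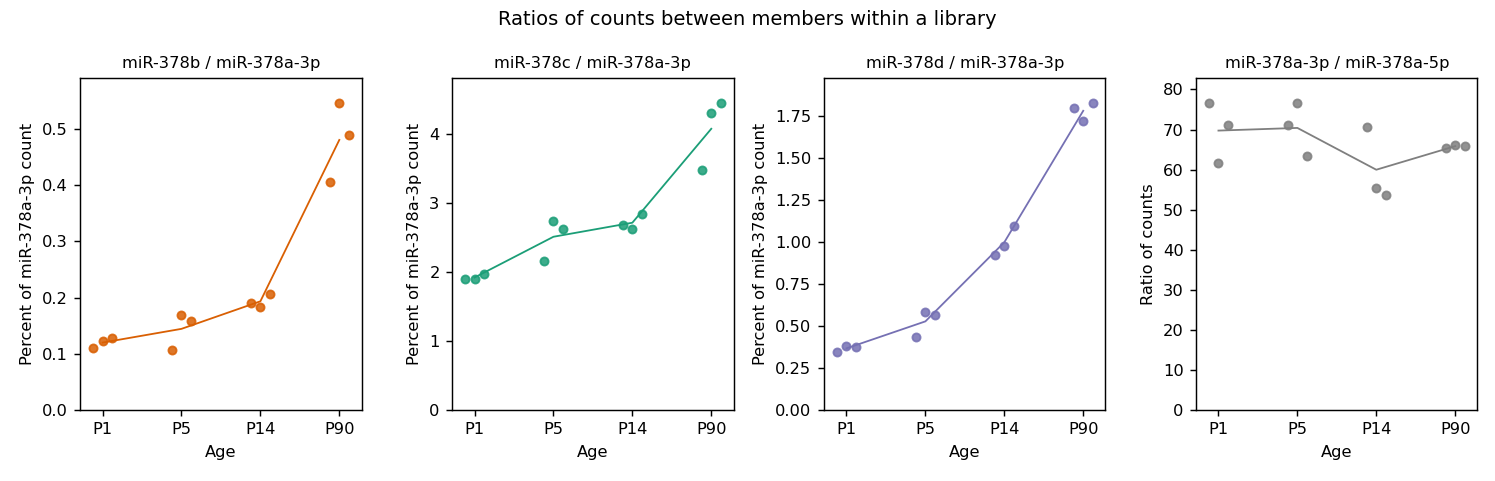
Counts of miR-378b, miR-378c and miR-378d as a percentage of the miR-378a-3p count of the same library, and the ratio of miR-378a-3p to miR-378a-5p counts, by age. Points are libraries (n = 3 at each age) and lines join the means. MiR-378d climbs at each step from at most 0.379% at P1 to at least 1.72% at P90, whereas the arm ratio stays between 53.7 and 76.6.

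To place the family among other miRNAs, those with the most similar course were listed. Over the 12 libraries, the log2 normalized CPM of miR-378a-3p was most alike that of miR-30d-5p (Pearson r = 0.99), miR-191-5p (r = 0.98) and miR-151-3p (r = 0.97) among the 202 other miRNAs whose mean reached 100 CPM. The same miRNAs came first for miR-378a-5p (r = 0.99, 0.98 and 0.98, in this order). With library totals alone, miR-30d-5p stood at place 1 for miR-378a-3p, miR-151-3p at 5 and miR-191-5p at 18. For miR-378a-5p they stood at places 3, 7 and 21. These correlations describe a course that is shared by libraries of the same age, and the scaling of a library is common to both sides. For comparison, r between the arms of miR-378a was 0.98, and among the paralogs it was 0.98 to 0.99. Between the miR-378a arms and the paralogs it was lower, at 0.88 to 0.96.

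A list of 22 miRNAs known for roles in metabolism, of which miR-696 was not analysed here, served as a reference for P90 versus P1. Of 21 tested, 10 were upregulated and 11 downregulated, with a median log2FC of -1.21, compared with 25.2% up-, 41.2% downregulated and a median of -0.72 for all miRNAs. MiR-365-3p (2.67), miR-193b-3p (2.25) and miR-338-3p (2.10) had the largest upward log2FC of the list. The first and second of these are linked to brown adipocyte differentiation. The other brown adipocyte lineage markers used below, miR-455-3p (-1.51) and miR-455-5p (-3.91), were downregulated. MiR-370-3p (-6.98), miR-335-5p (-5.00) and miR-494-3p (-4.88) had the largest downward values. Thus the log2FC of miR-378b and miR-378d exceeded those of all listed miRNAs. With library totals alone edgeR called 0 of the list up- (0 also at an unadjusted p under 0.05) and 16 downregulated, and with upper-quartile factors the numbers were 11 and 6. As given above, the calls over all miRNAs moved to 36 and 647, and to 391 and 192, with these scalings.

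Markers of several cell types were compared between P1 and P90 in the same way, and some lists held changes in both directions. Of 6 muscle fibre markers 2 were up- and 3 downregulated at P90 versus P1, and their summed share was 26.2% to 30.3% of counts at P1 and 55.7% to 58.5% at P90, led by miR-1a-3p. This sum leaves out the other miR-1a and miR-1b rows. All miR-1a and miR-1b rows together took 33.5% to 40.4% of counts at P1 and 79.6% to 85.3% at P90. The muscle calls were 2 and 4 with library totals and 3 and 3 with upper-quartile factors. All 4 endothelial and smooth muscle markers (led by miR-143-3p) were upregulated, although their summed share was 3.22% to 3.59% at P1 and 2.13% to 2.87% at P90, and they were downregulated with library totals alone. The 7 blood cell markers (led by miR-451a) were split between 2 up- and 2 downregulated, with summed shares of 0.0814% to 0.127% at P1 and 0.0162% to 0.0294% at P90. This split became 1 and 6 with library totals and 6 and 0 with upper-quartile factors. The 4 brown adipocyte lineage markers, led by miR-455-3p, included 2 up- and 2 downregulated, at 0.0494% to 0.0965% and 0.0113% to 0.0197%, and became 0 and 2 with library totals and 2 and 1 with upper-quartile factors. The liver marker miR-122-5p was downregulated (log2FC -2.71; not called with upper-quartile factors), with a share of at most 0.0622% in any library. Of 2 neuronal markers, led by miR-9-5p, 1 was upregulated, with summed shares of 0.0129% to 0.0273% at P1 and 0.00477% to 0.00649% at P90; both were downregulated with library totals and upregulated with upper-quartile factors. No marker was at 0 in any of the 12 libraries, and the part of these cell types in the miR-378 values was not tested.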

How the data were processed

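Reads of 10 to 35 nt were selected by the authors with cutadapt 1.18, aligned to GRCm38 with Bowtie2 2.4.1 and counted with featureCounts 2.0.1 on the miRBase release 22 annotation. The deposited values are raw counts per mature miRNA, without normalization; options for strand and multi-mapped reads are not given in the sources used here. The members and lists were chosen with earlier results of these data known. Groups were taken from sample titles. Counts were filtered with filterByExpr (809 miRNAs left), scaled with TMM factors and tested with edgeR 4.0.16 in R 4.3.3, after a check on simulated data. SE were derived from the F statistic. Ratios and shares were compared by exact permutation over samples. Other scalings, filters, DESeq2 1.42.0, GC correction, the replicate block and omission of each library were run as alternatives. Replicate counts differed by more than sampling noise (chi-square of at least 155 per degree of freedom). All members were named, together with the 3 most up- and the 3 most downregulated miRNAs (mean of at least 10 CPM) of the metabolic list, the most abundant marker per list, and the 3 miRNAs most correlated with each miR-378a arm. The counts carried no molecular identifiers.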

Additional observations from a re-analysis of the deposited data

How the results depend on the processing

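The count of upregulated members for P14 versus P5, and the changes in miR-378b, miR-378c and miR-378d relative to miR-378a-3p, kept their direction and their side of the threshold in all alternatives run. For P5 versus P1, the 4 calls became 0 in edgeR with library totals alone (5 in DESeq2), 2 with totals without the miR-1a and miR-1b rows and 2 with the replicate block, and 2 to 5 when 1 library was left out. The log2FC of the summed members in this step no longer passed with library totals (0.19), totals without the miR-1 rows (0.36), no filter on low counts (0.46) or the replicate block (0.49), nor without any 1 of 9 libraries (0.37 to 0.54 over the 12 omissions). For P90 versus P14, 5 members were called with upper-quartile factors and 5 with library totals alone, in opposite directions. The summed log2FC was 1.49 with upper-quartile factors, -2.35 with library totals and -0.39 without the miR-1 rows. Called values of a sign opposite to TMM in this comparison were those of miR-378a-3p (1.43) and miR-378a-5p (1.28) with upper-quartile factors and of miR-378b (-1.08), miR-378c (-1.82) and miR-378d (-1.54) with library totals. The uncalled miR-378a values also turned positive, without a call, with RLE factors (0.22 and 0.07 for the 3p and 5p arms), DESeq2 (0.22 and 0.07) and only the ages compared (0.16 and 0.01), and for the 3p arm with at least 10 counts in every library (0.01) and without P5 replicate 2 (0.09). The sum did so in these settings and without P90 replicate 2. For P90 versus P1, library totals turned miR-378a-3p (-0.83), miR-378a-5p (-0.75) and the sum (-0.78). Outside the miR-1 rows the adult share exceeded that of P1 by 1.40 percentage points for the family and 1.25 for miR-378a-3p. The log2 arm ratio for P90 minus P1 lay between -0.16 and -0.0059 over the omissions. The scalings differ in library size alone, so their shifts follow from their construction, and the cause of the other losses was not tested. The GC correction could not be applied to miR-378a or the sum.

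Replicate numbers did not pair the libraries. Deviations of same-numbered libraries correlated between -0.34 and 0.24, and 2 of 12 libraries correlated best with their own number. Over all miRNAs the replicate block lowered the calls of P5 versus P1 from 22 up- and 14 downregulated to 9 and 6, and in the other comparisons of ages it moved no such count by more than 1.5 times. Each member had at least 234 counts per library.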

Other observations

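The paralogs also changed relative to each other, which was examined after their values had been seen and was not tested. In newborns the count of miR-378d was 18.2% to 19.99% of that of miR-378c, and it was 19.96% to 21.5% in P5 libraries. In P14 libraries it was 34.3% to 38.6% and in adults 39.97% to 51.6%. The count of miR-378b was 5.82% to 6.47% of that of miR-378c in newborns and 4.89% to 6.20% in P5 libraries. It made 7.003% to 7.26% in P14 libraries and 11.02% to 12.7% in adults. Thus P1 and P5 overlapped in both ratios, and the P14 and adult libraries lay above them and apart from each other. The miR-378b to miR-378d percentage was 31.97% to 34.1% in newborns, 24.5% to 29.1% in P5 libraries, 18.8% to 20.7% in P14 libraries and 22.6% to 31.8% in adults. The P5 range lay within the adult range.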
